A study of Mus musculus with 49 samples.

Results

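The 10 endothelial genes Cldn5, Flt1, Pecam1, Cdh5, Tek, Kdr, Slco1c1, Ly6c1, Vwf and Esam were followed through a count table of 52636 mouse genes, across 3 ways of isolating RNA from D1- and D2-MSNs, the medium spiny neurons of the nucleus accumbens. They were chosen by name, as genes known from the cells that line blood vessels, and all 10 were found in the table by their symbols. This choice, and that of the gene lists used below, was made with earlier results of these data known. The shares of them called are therefore not those of an unseen set. None of the libraries was made from vessels. The libraries came from labelled neurons, and the comparison asked at which level each method and each neuron type carried these genes.

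Endothelial cells line every vessel of the brain, and there they form the blood-brain barrier. Neighbouring cells are sealed by tight junctions, of which Cldn5 (claudin-5) is a main component, and held together by adherens junctions built on Cdh5 (VE-cadherin). Vessel growth and survival run through receptors for vascular endothelial growth factor (VEGF), such as Kdr and Flt1, and for the angiopoietins, such as Tek. 

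All mice were on a C57BL/6J background, carried Cre under the promoter of Drd1 or of Drd2 in the nuclear and RiboTag lines, and each library is described as coming from its own mouse. Nuclear-FACS used Cre crossed to Thy1-loxPSTOPloxP-EGFP-F and sorted GFP-positive nuclei from frozen tissue (6 D1 and 5 D2 libraries). Whole cell-FACS sorted cells with a cytoplasmic fluorophore under the Drd1 or Drd2 promoter after papain digestion (8 D1 and 6 D2 libraries, after the lanes and the repeat run of a library were summed). RiboTag used Cre crossed to Rpl22-loxPexon4loxP-exon4-HA and immunoprecipitated HA-tagged ribosomes from 6 D1 and 6 D2 libraries labelled male (the M cohort) and 5 D1 and 5 D2 libraries labelled female (the F cohort). No treatment or age is given in the labels. In the Cre lines a cell can carry the tag or label wherever the Cre was once active. In the bulk RNA fewer endothelial cells and less RNA per cell cannot be told apart. Where a gene is called higher in D1- or D2-MSNs below, this means higher in the libraries of that label. RNA carried over from other cells of the tissue cannot be told apart there from RNA of the labelled neurons.

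Whole cell libraries held 10476223 to 27965357 counts, nuclear libraries 3701255 to 68777008 and RiboTag libraries 24076888 to 45641342, but in each RiboTag library the 10 highest genes took 84.9 to 88.3% of the counts. The mean levels of Drd1 and Drd2 were higher in the groups named for them in all 3 methods, although nuclear D2 libraries (221 ± 76.8 CPM of Drd2, SD, n = 5, where CPM are counts scaled to a library's TMM effective total) differed least from D1 (146 ± 68.3, SD, n = 6). Of 5 D2-MSN markers, Drd2 included, 3 were higher in D1 nuclei, 0 in D2 nuclei and 4 had negative log2 fold changes (median -1.26), so that in nuclear libraries this marker list went against the labels, while 4 of 5 D1-MSN markers were higher in D1 nuclei. In RiboTag libraries the 5 D2-MSN markers together had a median of 146 CPM in D1 and 871 in D2 libraries. Of the 12 RiboTag libraries labelled male, 6 had more counts of Xist, which is expressed from the inactive X chromosome of females, than of 4 Y-linked genes together (4 of the D1 and 2 of the D2 libraries). The other 6 had 289 to 437 counts of the Y-linked genes and at most 17 of Xist, whereas the 10 libraries labelled female had 90 to 402 of Xist and at most 9 of the Y-linked genes. The M cohort is therefore called by its label only, and the tests of the 10 genes that use it are also given without the 6 libraries.

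In RiboTag libraries the 10 genes together had 1.32 to 5.59 CPM in D1 (median 2.07) and 1.27 to 2.20 in D2 libraries (median 1.81), with wide overlap, but single genes differed between the neuron types. With both cohorts in a single fit, 6 of the 10 genes (Vwf, Cldn5, Flt1, Pecam1, Cdh5 and Ly6c1) were higher in D1- than in D2-MSNs, none was higher in D2-MSNs, and the other 4 (Tek, Kdr, Slco1c1 and Esam) did not pass the test. Across all 20438 genes tested, 4.08% were called higher in D1-MSNs and 2.55% higher in D2-MSNs (edgeR's quasi-likelihood test, adjusted p of at most 0.05). The median log2 fold change, D2 minus D1, was -1.35 over the 10 genes and -0.0034 over all genes. The filter taken from the study's methods, which asks for more than 1 FPM (fragments scaled to the library total) in at least 2 libraries and a minimum FPKM, left none of the 10 genes in any RiboTag comparison. These fits therefore kept every gene with a mean count of at least 1 over the libraries compared, a filter that does not look at the groups and that was chosen after seeing the data. All 10 genes passed it in every comparison.

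**Figure D1:**
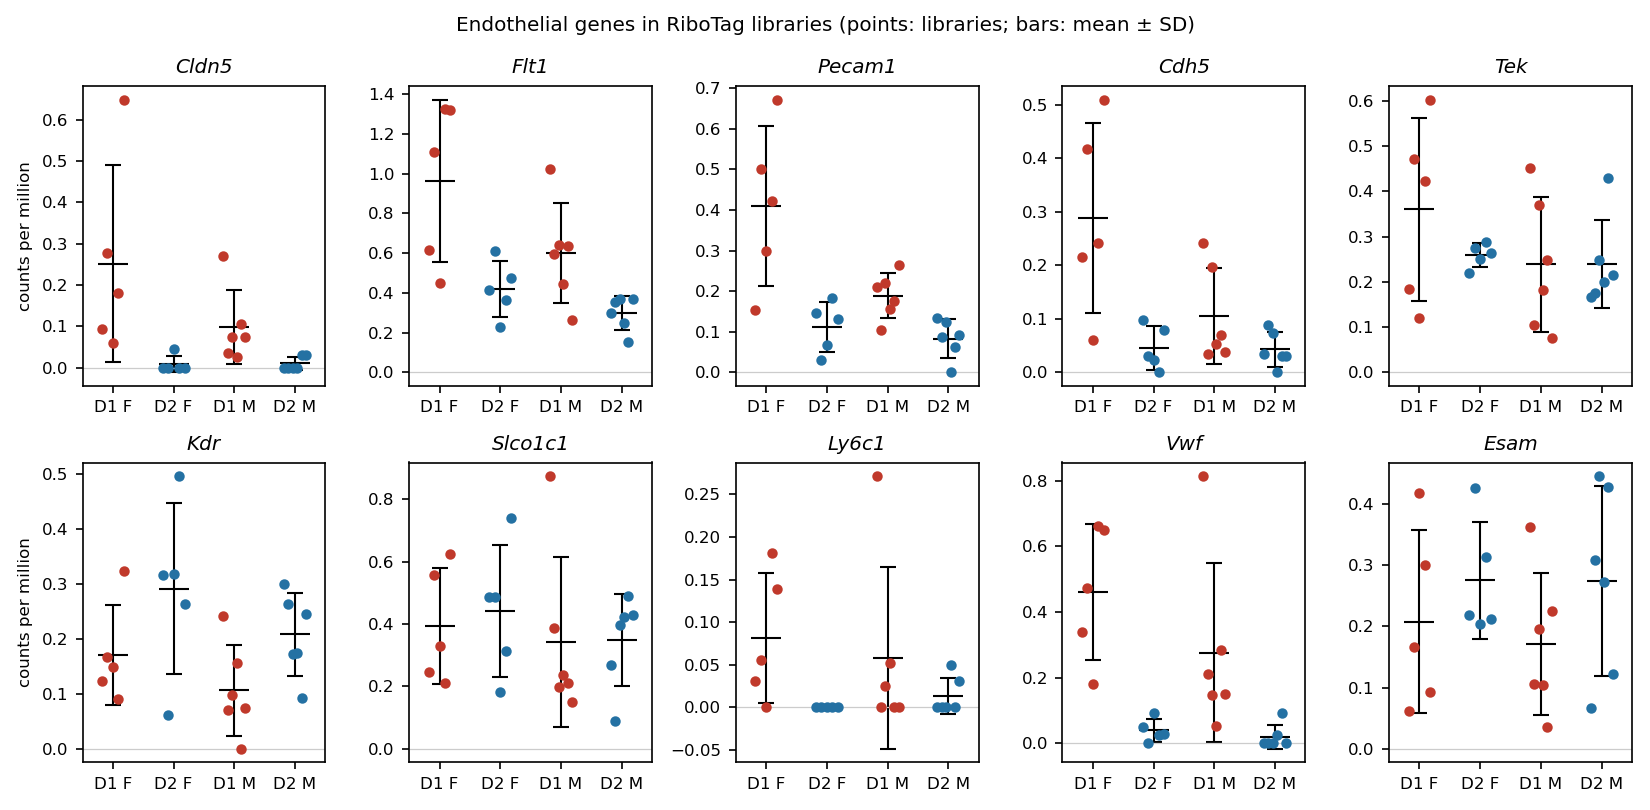
CPM of the 10 genes in each RiboTag library (points), with the mean and SD of each group (bars), for D1 (red) and D2 (blue) libraries labelled female (F) or male (M). Cldn5 and Vwf in D1 F libraries lie wholly above the D2 F libraries, and Ly6c1 is at 0 in all 5 D2 F libraries.

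Vwf, the von Willebrand factor that endothelial cells store and release for platelet adhesion, separated the neuron types most clearly by its p-value. The gene spans chromosome 6 from 125546774 to 125686679. The 5 D1 libraries of the F cohort held 11, 17, 6, 22 and 28 counts and the 5 D2 libraries 2, 0, 4, 1 and 1. In the M cohort the lowest, median and highest D1 library held 2, 6 and 27 counts, while 4 of the 6 D2 libraries held 0 and the highest held 3. The groups did not overlap in the F cohort, and in the M cohort 5 of 6 D1 libraries lay above every D2 library after scaling. Vwf was 11.0-fold higher in D1-MSNs over both cohorts (log2 fold change -3.45, SE 0.47, adjusted p = 9.8e-07).

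Cldn5, the claudin that seals the tight junctions of brain endothelium (chromosome 16, 18776847 to 18778262), followed the same course at still lower counts. The D1 libraries of the F cohort held 3, 10, 2, 6 and 28 counts, and of the D2 libraries a single one held 2 counts and the others 0. In the M cohort the D1 libraries held 1, 2.5 and 9 counts at their lowest, median and highest, and the 6 D2 libraries held 2 counts between them. Every D1 library thus had at least 1 count, and 8 of the 11 D2 libraries had none. Summed over both cohorts, 68 counts in D1 against 4 in D2 libraries gave a ratio of 17.8 per effective library size (95% interval from counting error only, 6.66 to 67.4). The fitted log2 fold change was -3.69 (SE 0.62, adjusted p = 4.7e-05).

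Cdh5, or VE-cadherin, the adherens junction protein of endothelial cells (chromosome 8, 104101625 to 104144511), was 4.19-fold higher in D1-MSNs (log2 fold change -2.07, SE 0.46, adjusted p = 0.0020). Its D1 libraries of the F cohort held 7, 15, 2, 8 and 22 counts and the D2 libraries 4, 1, 1, 0 and 3. Only 2 of the 6 D1 libraries of the M cohort lay above the highest D2 library, against 4 of 5 in the F cohort. The antisense gene Gm29682 overlaps Cdh5, and as the counts take no account of strand, reads of the overlap cannot be told apart.

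Pecam1, the adhesion molecule CD31 at contacts between endothelial cells and on blood cells (chromosome 11, 106654217 to 106750628), was 2.96-fold higher in D1-MSNs (log2 fold change -1.57, SE 0.32, adjusted p = 0.00076). Counts in the F cohort were 5, 18, 10, 14 and 29 in D1 and 6, 1, 3, 7 and 5 in D2 libraries. Those of the M cohort ran from 3 through a median of 6.5 to 9 in D1 and from 0 through 2.5 to 5 in D2. After scaling, all 11 D1 libraries lay above the median of the 11 D2 libraries, and 7 lay above all of them.

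Esam, a further adhesion molecule of endothelial tight junctions (chromosome 9, 37528078 to 37538319), did not share this pattern. The D1 libraries of the F cohort held 2, 6, 14, 10 and 4 counts and the D2 libraries 9, 14, 9, 12 and 8. In the M cohort the D1 libraries held 1, 5 and 12 and the D2 libraries 2, 9 and 18 counts at the lowest, median and highest. The groups overlapped in both cohorts, and the log2 fold change of 0.54 (95% interval -0.07 to 1.16) did not pass the test (adjusted p = 0.43).

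The VEGF receptors differed from each other. Flt1, or VEGFR1, which binds VEGF with high affinity and in its soluble form withholds it from Kdr (chromosome 5, 147561604 to 147726011), was the most counted of the 10 genes in RiboTag D1 libraries. It held 20, 40, 15, 44 and 57 counts in D1 and 17, 20, 10, 14 and 18 in D2 libraries of the F cohort, and in the M cohort 7, 17.5 and 34 in D1 and 5, 9.5 and 15 in D2 at the lowest, median and highest. Flt1 was 2.20-fold higher in D1-MSNs (log2 fold change -1.14, SE 0.21, adjusted p = 0.00021), although 4 of the 11 D1 libraries lay within the range of D2. Kdr, or VEGFR2, the main signalling receptor for VEGF (chromosome 5, 75932827 to 75978458), pointed the other way without passing the test (log2 fold change 0.79, 95% interval 0.16 to 1.41, adjusted p = 0.17). Its counts were 4, 6, 5, 3 and 14 in D1 and 13, 2, 14, 19 and 10 in D2 libraries of the F cohort, and 0 to 8 against 3 to 9 in the M cohort. No D1 library exceeded the highest D2 library in Kdr.

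Tek, or Tie2, the angiopoietin receptor that keeps vessels quiescent (chromosome 4, 94739289 to 94874976), had 6, 17, 4, 14 and 26 counts in D1 and 9, 9, 11, 11 and 10 in D2 libraries of the F cohort. Its D1 libraries were thus both lowest and highest. The log2 fold change was -0.28 (95% interval -0.80 to 0.25, adjusted p = 0.72). Slco1c1, a thyroid hormone transporter of the blood-brain barrier that astrocytes also express (chromosome 6, 141524368 to 141570177), did not pass either (log2 fold change 0.10, 95% interval -0.43 to 0.62, adjusted p = 0.93). It held 7 to 27 counts in D1 and 8 to 28 in D2 libraries of the F cohort, and 4 to 29 and 2 to 17 in the M cohort.

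Ly6c1, a surface protein of brain endothelium and of some blood cells (chromosome 15, 75044018 to 75048830), rested on very few counts. The D1 libraries of the F cohort held 1, 2, 0, 6 and 6 counts, and all 5 D2 libraries held 0. Setting the D2 group at a floor of 3 counts gave a D1 to D2 ratio of 5.44 in the F cohort. The 95% interval from counting error only began at 3.90. In the F cohort alone Ly6c1 did not pass the test (log2 fold change -4.68, adjusted p = 0.059). A single D1 library of the M cohort held 9 of the 12 D1 counts, and D2 libraries held 3 counts in all. Over both cohorts the ratio of 27 to 3 counts was 9.45 (95% interval from counting error only, 2.91 to 48.7), and the fitted log2 fold change was -2.74 (SE 0.78, adjusted p = 0.023). Ly6c2 is a near-identical copy, and reads that aligned to both were left out as multimapping, so the counts of Ly6c1 may be too low.

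**Figure D2:**
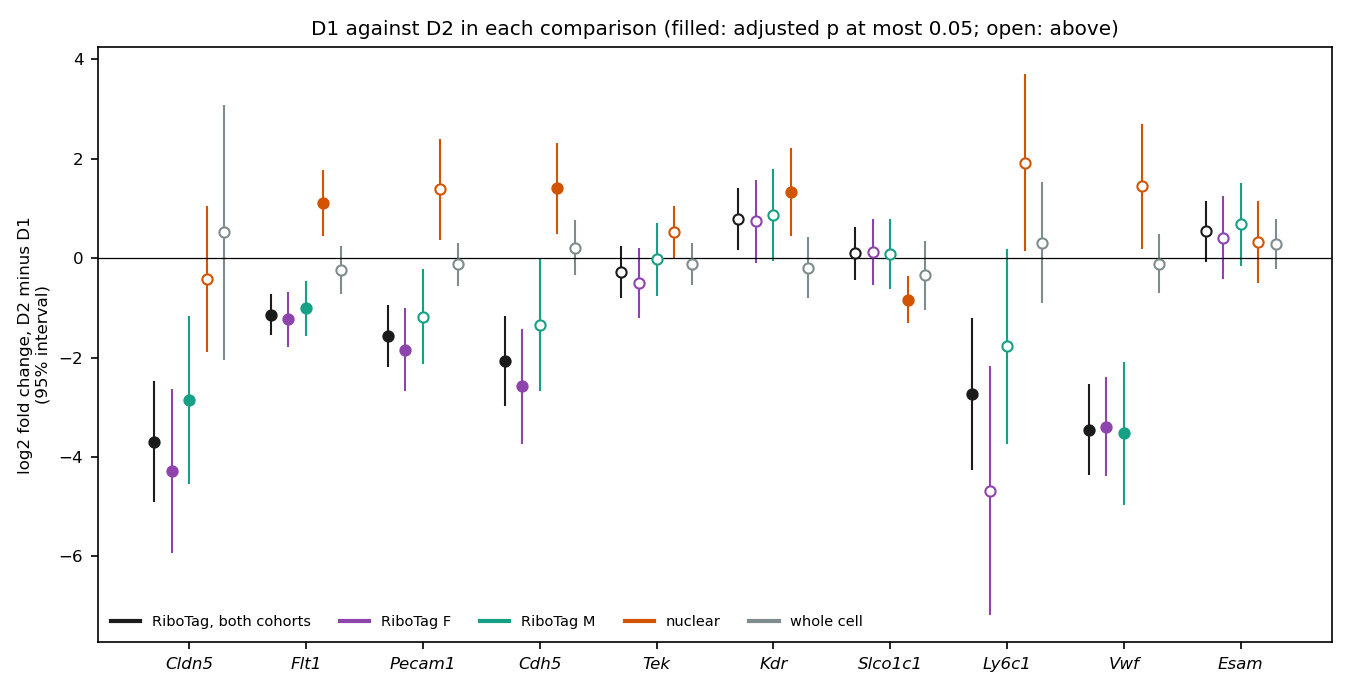
Log2 fold change, D2 minus D1, of each gene in the 5 comparisons, with 95% intervals (filled symbols passed an adjusted p of at most 0.05). The RiboTag values of Vwf, Cldn5, Flt1, Pecam1, Cdh5 and Ly6c1 lie below 0, while the nuclear values of 8 of the 10 genes lie above 0 and the whole cell values scatter around 0.

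Compared per kilobase of exon within RiboTag libraries, the order of the genes differed between neuron types. In D1-MSNs Cldn5 had the highest mean level, at 0.119 ± 0.128 CPM per kilobase (SD, n = 11), followed by Slco1c1 at 0.0705 ± 0.0439 and Esam at 0.0656 ± 0.0441. In D2-MSNs Esam led at 0.0958 ± 0.0437 (SD, n = 11), then came Slco1c1 at 0.0755 ± 0.0340 and Tek at 0.0527 ± 0.0152. Cldn5 was eighth there at 0.00685 ± 0.0120, ahead of Ly6c1 and of Vwf at 0.00175 ± 0.00219. Neighbours in either order differed by less than the larger of their SDs, except in D2-MSNs Tek over Kdr (0.0273 ± 0.0133) and Flt1 (0.0262 ± 0.00923) over Pecam1 (0.0155 ± 0.00868). Across the 22 libraries Cldn5 ran closely with Vwf (Pearson's r of log2 levels 0.91) and Cdh5 (0.77) and not with Kdr (-0.19) or Esam (-0.27). These correlations describe libraries that share a cell type and a depth, and carry no test.

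The 2 cohorts were also compared separately. In the F cohort 5 genes (Vwf, Cldn5, Cdh5, Flt1 and Pecam1) were higher in D1-MSNs, where 1.24% of all genes tested were called in that direction and 0.911% in the other. In the M cohort 3 genes (Vwf, Flt1 and Cldn5) were higher in D1-MSNs, against 2.74% of all genes in that direction and 2.00% in the other. Vwf was 10.5-fold higher in the F cohort (adjusted p = 8.1e-05) and 11.5-fold in the M cohort (adjusted p = 0.0016), and Cldn5 19.4-fold (adjusted p = 0.0031) and 7.23-fold (adjusted p = 0.049). With the replicate number as a block, Cldn5 lost its call in the M cohort (adjusted p = 0.094). The difference between the cohorts in D2 minus D1 was tested by an interaction term and passed for 0 of the 10 genes, with 0 of them at an unadjusted p under 0.05 and 0% of all genes called (1197 of 20438 genes had an unadjusted p under 0.05, and DESeq2 also called 0). Without the 6 libraries that go against the male label, both this test and that of F against M called 0 of the 10 genes as well. All 10 genes had higher fitted levels in the F than in the M cohort, but none passed the test of that difference either (0 called, 4 at an unadjusted p under 0.05, 0.0294% of all genes called), and the log2 difference of Flt1, for example, was 0.60 (adjusted p = 0.46).

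Single libraries weighed on these counts. Without the D1 library numbered 6 of the F cohort, or without its D2 library numbered 3, 2 genes (Cldn5 and Vwf) were called there. The share of all genes called in either direction was then 1.87% and 1.48%, against 2.15% with all libraries. For the M cohort, leaving out D1 library 1, 3 or 5 or D2 library 1 or 4 left a single gene, Vwf. The share of all genes called was then 6.42%, 3.80%, 3.99%, 4.08% and 3.72% in that order, against 4.74% with all libraries. Without the 6 libraries whose counts go against the male label, which leaves 2 D1 and 4 D2 libraries, 0 genes were called in the M cohort (Vwf log2 fold change -2.80, adjusted p = 0.16), while both cohorts together gave 5, Ly6c1 falling out (adjusted p = 0.15). With both cohorts, leaving out any single library left 5 or 6 genes called, Ly6c1 losing its call without D1 library 5 of the F cohort (adjusted p = 0.054) or D1 library 1 of the M cohort (adjusted p = 0.090). The share of all genes called over both cohorts then ran from 5.94% to 6.99%, against 6.63% with all libraries.

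A technical measure moved with the endothelial genes. The share of counts in a library's 10 highest genes was 84.9 to 88.2% in D1 (median 86.7%) and 86.2 to 88.3% in D2 RiboTag libraries (median 87.3%), and its correlation with the log2 level across the 22 libraries was -0.69 for Cdh5, -0.68 for Flt1, -0.64 for Cldn5, -0.60 for Vwf, -0.55 for Ly6c1 and -0.48 for Pecam1. Among the genes that were not called it was -0.51 for Tek, -0.35 for Slco1c1, -0.05 for Esam and -0.0026 for Kdr. With this share as a covariate, Vwf (log2 fold change -2.70), Cldn5 (-2.63), Pecam1 and Flt1 were still called over both cohorts and Cdh5 and Ly6c1 were not (adjusted p = 0.24 and 0.59). In either cohort alone, Vwf was then the single gene called. The part of this share in the result beyond that fit was not tested.

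Other lists of cell type genes were read from the same fit. Of 28 further endothelial genes, 20 were tested and 6 were higher in D1-MSNs, none in D2-MSNs, with a median log2 fold change of -0.33. They included Ptprb, a phosphatase that acts on Tek and Cdh5 (-1.75, adjusted p = 1.5e-07), Itm2a (-0.78, adjusted p = 0.00015), Tie1, a receptor related to Tek (-3.17, adjusted p = 0.00083), and Nos3, the endothelial nitric oxide synthase (-1.22, adjusted p = 0.0052). Of 27 genes of the blood-brain barrier, 24 were tested and only Spock2, which neurons express as well, was higher in D1-MSNs (-0.18, adjusted p = 0.00016). The efflux pump Abcb1a (-0.97, adjusted p = 0.096), the amino acid transporter subunit Slc3a2 (-0.20, adjusted p = 0.14) and the Wnt receptor Fzd4 (-0.58, adjusted p = 0.16) did not pass. Of 10 VEGF and angiopoietin pathway genes, 9 were tested and the co-receptor Nrp2, which neurons use in axon guidance, was higher in D1-MSNs (-0.37, adjusted p = 0.0037), while the VEGF receptor Flt4 was at -1.22 (adjusted p = 0.34) and the ligand Vegfa at 0.09 (adjusted p = 0.73).

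Other cells of the vessel wall and of the tissue were read from their own markers. None of 8 mural cell genes tested (of 11), 5 fibroblast genes (of 6) or 2 blood genes (of 5) passed in either direction. The mural median log2 fold change was 0.27 over both cohorts, 0.55 in the M cohort and -0.08 in the F cohort. None of 7 oligodendrocyte or 5 microglia genes tested passed. Of 7 astrocyte genes only Slc1a2, the glutamate transporter of astrocyte processes, was higher in D1-MSNs (-0.79, adjusted p = 2.8e-11), while Aldoc (0.36, adjusted p = 0.19), Gja1 (-0.48, adjusted p = 0.30) and Aqp4 (0.39, adjusted p = 0.40) did not pass. The summed level of the 7 astrocyte genes was 36.1 to 61.5 CPM in D1 and 26.6 to 35.8 in D2 libraries, without overlap. Such a sum follows its most counted genes, and the median log2 fold change of the 7 was -0.04, with 5 of them negative. Summed mural levels were 1.70 to 3.43 and 1.58 to 3.18 and summed microglia levels 13.3 to 14.9 and 13.0 to 15.9. The part of astrocyte RNA in the endothelial result was not tested.

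**Figure D3:**
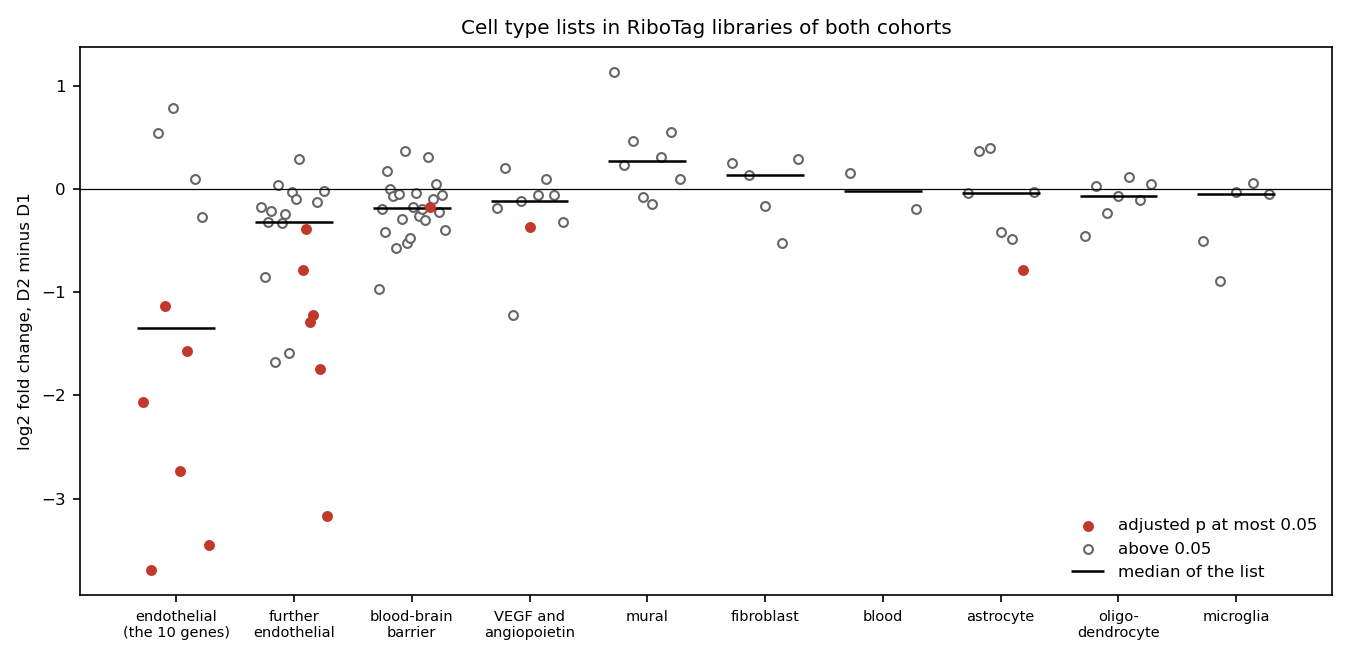
Log2 fold change, D2 minus D1, of each gene tested (points, filled red where the adjusted p was at most 0.05) in 10 lists of cell type genes in RiboTag libraries of both cohorts, with the list's median (bars). Medians lie at -1.35 for the 10 genes, -0.33 for the further endothelial genes and 0.27 for the mural genes.

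In nuclear libraries the direction differed. Of the 10 genes, 3 were higher in D2-MSNs (Flt1, Cdh5 and Kdr) and 1 in D1-MSNs (Slco1c1), where 20.7% of all 49404 genes tested were called in either direction. The log2 fold changes were 1.11 for Flt1 (SE 0.34, adjusted p = 0.034), 1.41 for Cdh5 (SE 0.46, adjusted p = 0.044), 1.34 for Kdr (SE 0.45, adjusted p = 0.047) and -0.83 for Slco1c1 (SE 0.24, adjusted p = 0.030). The median over all genes was itself 0.72 and that over the 10 genes 1.22. These calls take no account of the receptor gene background described below, which also differed between D1 and D2 nuclei. The calls were fragile: leaving out 1 library gave between 0 and 7 calls, with 0 without D1 library 4 or 5 or D2 library 1, 5 or 7, 1 without D1 library 1 or 2 or D2 library 3, 2 without D2 library 2 and 7 without D1 library 3. The share of all genes called moved too, from 8.24% without D2 library 1 to 40.2% without D1 library 3. With DESeq2's size factors Slco1c1 was no longer called (log2 fold change -0.54, adjusted p = 0.082) and Pecam1 was. The study's filter left Ly6c1 alone of the 10 genes, which did not pass (2.63, adjusted p = 0.064).

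Markers of other cells moved in the same nuclear fit, several lists of them the other way. Of 7 astrocyte genes 5 were higher in D1 nuclei (median log2 fold change -1.45), of 7 oligodendrocyte genes 6 (-1.16) and of 6 neuron genes 5 (-1.64), and none of these was higher in D2 nuclei. Of 28 further endothelial genes, 3 were higher in D2 and 1 in D1 nuclei (median 1.02), where 20.7% of all genes were called. Of 11 mural genes 1 was higher in D2 nuclei (median 0.62), and of 6 fibroblast genes 0 were called (median 1.21). The median over all genes was 0.72. The summed astrocyte level was 732 to 2488 CPM in D1 and 237 to 454 in D2 nuclei, the oligodendrocyte level 525 to 1670 and 205 to 483, and the neuron level 1590 to 4550 and 687 to 1321, each without overlap. Slco1c1 had the direction of the astrocyte genes. Their part in the nuclear result was not tested.

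The nuclear D1 libraries spread widely. Flt1 had 11.3, 25.1 and 56.1 CPM in D1 nuclei at the lowest, median and highest of 6 libraries, and 54.1, 60.1 and 69.2 in the 5 D2 libraries, so that the groups overlapped in the highest D1 library. Slco1c1 had 19.5, 29.3 and 48.0 in D1 and 13.6, 17.4 and 19.9 in D2 nuclei, with the lowest D1 library inside the range of D2. The 10 genes together had 72.0 to 226 CPM in D1 and 229 to 274 in D2 nuclei.

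In whole cell libraries 0 of the 10 genes were called, where 0.0688% of 43576 genes tested were. Unadjusted p-values under 0.05 were found for 0 of the 10, and DESeq2 called 0 of them as well. The log2 fold changes ran from -0.34 for Slco1c1 to 0.52 for Cldn5, whose interval ran from -2.05 to 3.09, 2 of the 8 D1 and 4 of the 6 D2 libraries holding no count of it. Flt1 had 61.8 ± 18.5 CPM in D1 (SD, n = 8) and 52.8 ± 14.1 in D2 cells (SD, n = 6), and Vwf 55.8 ± 13.3 and 51.8 ± 25.0, with wide overlap.

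Counts over gene bodies include introns and any DNA in the library, so each level was set beside a background taken from 1431 odorant and vomeronasal receptor genes, which the striatum is not known to use, as the count per kilobase of gene span over theirs. In whole cell libraries Flt1 stood at a median of 1.92 times that background in D1 and 1.89 in D2, and Vwf at 2.10 in both. In nuclear libraries the medians were 2.67 and 2.05 for Flt1 and 1.75 and 2.15 for Vwf. For Flt1 and Vwf the medians in sorted cells and nuclei thus stayed below 3 times the receptor genes. Kdr and Cdh5, also called higher in D2 nuclei, stood at 2.31 and 2.19 in D1 and at 1.98 and 2.34 in D2 nuclei. The background itself had a median of 0.390 counts per kilobase in D1 and 12.6 in D2 nuclei before scaling. Scaled to the effective totals, it was higher in each D2 than in each D1 nuclear library. Higher medians were found for Esam, at 6.59 in whole cell D1, 8.67 in whole cell D2 and 5.82 in nuclear D1 libraries. Cldn5 in D1 nuclei had a median of 6.95, on 0 to 51 counts a library (median 3), and stood at 4.82 in the library with 51. Slco1c1 in D1 nuclei stood at 3.90 to 42.8 times the background, against at most 2.62 in D2 nuclei.

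RiboTag libraries stood further above the same background in the D1 groups for all 10 genes by their medians. The background itself rested on few counts there. In D2 library 5 of the M cohort the receptor genes held 135 counts, and 1 count of Cldn5 stood at 66.0 times the background. In the D2 groups Cldn5 and Ly6c1 had medians of 0, Vwf 0.668 and 0, and Cdh5 2.02 and 2.47 in the F and M cohorts, at or near the levels in sorted cells and nuclei or below them. Flt1 was at a median of 17.3 in D1 and 8.06 in D2 libraries of the F cohort, and at 13.4 and 6.62 in the M cohort. Vwf was at 8.62 and 4.63 in the D1 libraries of the F and M cohorts, and at most 2.06 in any D2 library. Esam, at medians of 41.5 to 113 in the 4 groups, was far above the background in both neuron types. The part of the background in the nuclear and whole cell levels was not tested.

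**Figure D4:**
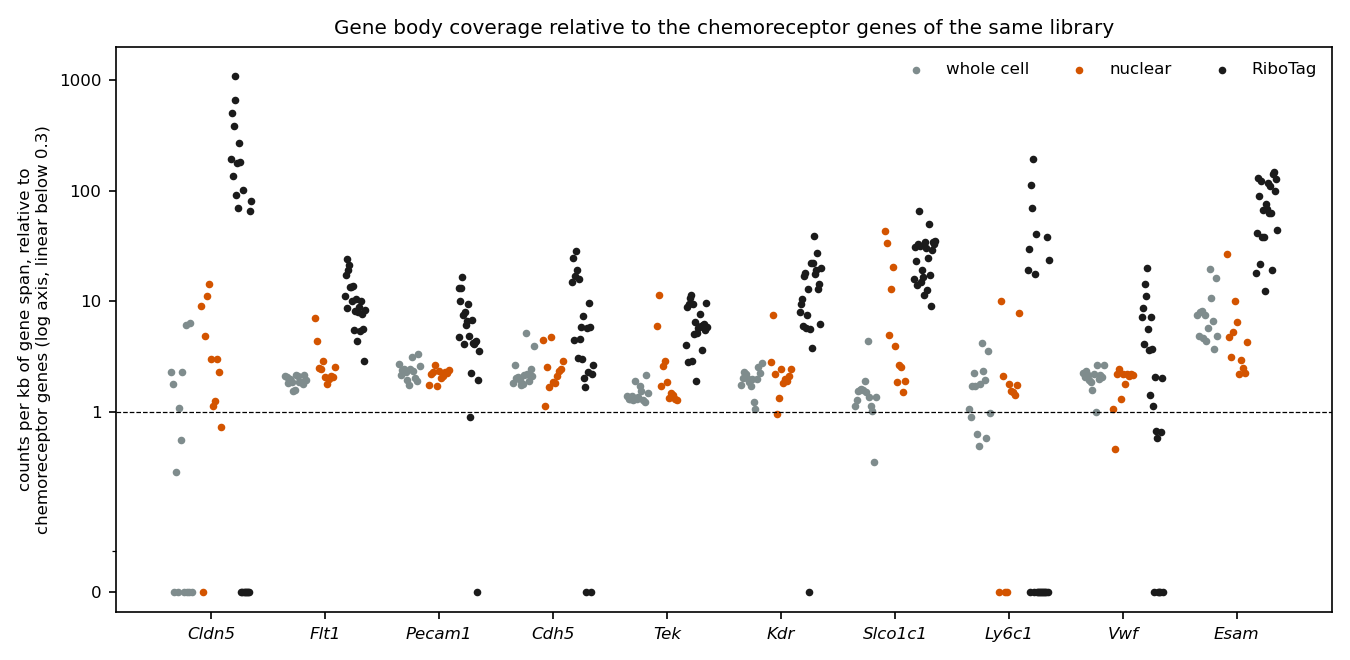
Count per kilobase of gene span over that of the odorant and vomeronasal receptor genes (log axis) for the 10 genes in each library of the 3 methods. Whole cell and nuclear values lie mostly close together and low, with Slco1c1 in D1 nuclei at 3.90 to 42.8. RiboTag values reach 1095 for Cldn5, in a library with 28 counts of it.

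The methods were compared over libraries labelled male with D1 and D2 weighted equally, on genes above 1 FPM in at least 2 libraries, which left 9 of the 10 genes (not Cldn5). A gene could pass this filter through the whole cell or nuclear libraries alone. All 9 were lower in RiboTag than in whole cell libraries, where 63.4% of 29901 genes were, and all 9 were lower than in nuclear libraries, where 64% were. Both comparisons share the RiboTag libraries, and without the 6 that go against the male label all 9 were again lower in each. Without a filter, Cldn5 was not called (log2 difference 0.19, SE 1.01, against whole cell and -0.83, SE 0.89, against nuclear libraries). In D1 libraries alone Ly6c1 was not called either (-0.63, adjusted p = 0.52, and -0.12, adjusted p = 0.91). Vwf differed most, 67.0-fold against whole cell (log2 difference -6.07, SE 0.55, adjusted p = 1.3e-12) and 56.0-fold against nuclear libraries (-5.81, SE 0.56, adjusted p = 5.9e-12). These folds rest on a joint TMM scaling of the 3 methods, whereas the CPM printed above were scaled within each method. Scaled to total counts alone, Vwf differed 689-fold and 492-fold and Flt1 147-fold and 124-fold, against 12.7-fold and 13.1-fold in the joint scaling. Slco1c1 differed least from whole cell libraries (-1.70, SE 0.28, adjusted p = 9.3e-07) and Esam least from nuclear libraries (-1.46, SE 0.29, adjusted p = 2.2e-05). The median difference of the 9 genes was -3.66 and -3.72, that of all genes -1.91 and -2.19, and that of the 838 receptor genes tested -7.40 and -7.18.

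Between nuclear and whole cell libraries 2 of the 9 genes passed, where 20% of all genes did. Slco1c1 was 2.61-fold higher in nuclei (log2 difference 1.38, SE 0.25, adjusted p = 6.2e-05) and Esam 2.07-fold lower (-1.05, SE 0.26, adjusted p = 0.0024). The other 7, from -0.28 for Cdh5 to 0.24 for Ly6c1, did not pass.

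The difference between neuron types was itself compared between methods. D2 minus D1 was lower in RiboTag than in nuclear libraries for 4 of the 9 genes, where 14.6% of all genes differed in either direction: Flt1 by -2.11 (SE 0.51, adjusted p = 0.0062), Pecam1 by -2.56 (SE 0.76, adjusted p = 0.021), Cdh5 by -2.82 (SE 0.86, adjusted p = 0.023) and Vwf by -5.11 (SE 1.25, adjusted p = 0.0066). Without the 6 libraries that go against the male label, which leaves 2 RiboTag D1 and 4 D2 libraries, none of the 4 passed (Flt1 -1.74, adjusted p = 0.16, Pecam1 -2.76, adjusted p = 0.15, Cdh5 -1.93, adjusted p = 0.53, and Vwf -4.26, adjusted p = 0.14), and 11 of 32107 genes were called in all. The median of this difference over all libraries was -2.11 over the 9 genes, -0.04 over all genes and -1.55 over the receptor genes. Against whole cell libraries 0 of the 9 passed, where 0.12% of all genes did, with Vwf at -3.58 (SE 1.27, adjusted p = 0.71).

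Among the 7172 genes that passed the study's filter in RiboTag libraries of both cohorts, those whose log2 level ran most like the mean of the 10 genes over the 22 libraries were Mical3 (Pearson's r 0.87), Fam107a (0.85), Hcfc1 (0.82), Ank3 (0.81), Zfp462 (0.77), Plxna2 (0.75), Sptb (0.74), Gm37340 (0.73), Trak2 (0.72) and Gm16958 (0.71). The 22 libraries share cell type, cohort and the share of counts in few genes, and these values carry no test. Of the 10 genes, Cdh5 ran most like the mean of the other 9 (0.77) and Esam least (-0.10).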

How the data were processed

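Unstranded gene-body counts, deposited by the authors as raw read counts per gene, came from reads aligned with HISAT2 2.0.5 to GRCm38 and counted with featureCounts, with overlapping genes each counted and multimapping reads left out. Introns are thus included. From 49 columns, lanes and a repeat run were summed to 47 libraries, grouped by their labels. Each D1 against D2 comparison used edgeR 4.0.16 (R 4.3.3) with TMM scaling and the quasi-likelihood test, a cohort term where both RiboTag cohorts entered, and Benjamini-Hochberg adjustment over all genes tested (threshold 0.05). DESeq2 1.42.0 was an alternative. The planned filter (above 1 FPM in 2 libraries plus an FPKM minimum, 0.1 in RiboTag) removed nearly all of the 10 genes, so a mean count of at least 1, chosen after seeing the data, is reported first. The 10 genes and all lists were chosen with earlier results of these data known. Named were all 10 genes, up to 4 genes a list by smallest adjusted p in the fit of both cohorts, and the 10 genes most like the mean of all 10 (planned over tested ones, of which there were none). Scripts were tested on simulated data. Counting intervals and floors of 3 counts cover counting error only. RiboTag M numbers did not pair the libraries.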

Additional observations from a re-analysis of the deposited data

Results flagged for a closer look

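In 10 of 80 groups of libraries 1 library lay far from the others by Dixon's test. Its chance rate of about 1 in 20 assumes normal values and separate groups. Many groups here hold counts near 0 and the genes share libraries, so the number flagged cannot be read against that rate. RiboTag D1 library 1 of the M cohort was highest in Cldn5 (0.271 CPM, others at most 0.106), Slco1c1 (0.874, others at most 0.386), Ly6c1 (0.271, others at most 0.0523) and Vwf (0.814, others at most 0.283). RiboTag D2 library 5 of the M cohort was highest in Tek (0.428, others at most 0.248) and Vwf (0.0918, others at most 0.0249), and D2 library 3 of the F cohort in Cldn5 (0.0454, others at 0). Nuclear D2 library 7 was highest in Ly6c1 (5.92, others at most 1.72) and Esam (6.88, others at most 5.01), and nuclear D2 library 5 in Vwf (62.3, others at most 50.9).

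D2 minus D1 differed between RiboTag and nuclear libraries by an interaction term for Flt1 (log2 difference -2.11), Pecam1 (-2.56), Cdh5 (-2.82) and Vwf (-5.11). None of the 4 passed without the 6 RiboTag libraries that go against the male label.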

How the results depend on the processing

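Of 361 alternative fits of the called fold changes, 289 passed the threshold, 72 did not and 0 turned direction. With the study's filter 0 of the 10 genes were called in any D1 against D2 comparison; the nuclear count became 1 with DESeq2, 3 without the FPKM filter, 4 without a filter and 4 with summed exons as length (0 to 1 leaving out a library). Without a filter RiboTag gave 3 (M), 6 (F) and 6 (both cohorts), without the FPKM filter 1 (F) and 1 (both), and with summed exons 1 (F). From a mean count of at least 1, the fragment filter without the FPKM minimum gave 0 (M), 1 (F) and 1 (both), as it left 0, 1 and 1 of the genes. A mean count of at least 5 gave 1 (M) and 3 (both), the 10-gene share as covariate 1 (M) and 1 (F), and leaving out the libraries that go against their label 0 (M) and, for D2 minus D1 in RiboTag less nuclear libraries, 0 of the 9 tested in place of 4. Leaving out a library gave 0 to 7 (nuclear), 1 to 3 (M), 2 to 6 (F) and 5 to 6 (both). Nuclear against whole cell gave 1 in D1 libraries alone. RiboTag counts of the 10 genes reached at most 57 per library. The causes were not tested beyond the genes and libraries each setting removes.

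With the replicate number as a block, the M cohort gave 2 calls (Flt1 and Vwf). Same-numbered libraries correlated at -0.03 to 0.15, and only library 2 correlated best with its own number, so the numbers did not pair the libraries. The block was not run for the F cohort or both cohorts, where the column numbers do not follow the replicate numbers of the labels.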
